A study of Mus musculus with 12 samples.

Results

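Mitochondria make ATP by passing electrons from NADH and succinate through complexes I, II, III and IV of the inner membrane, and complex V, the ATP synthase, uses the proton gradient that complexes I, III and IV build. A few subunits are encoded by mitochondrial DNA, and all others are encoded in the nucleus, translated in the cytosol and imported. Macrophages shift between respiration and glycolysis as they are activated or take up dying cells.

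The genes described here are the nuclear-encoded subunits of these complexes, chosen by symbol (Nduf followed by a, b, c, s or v and a number, Sdha to Sdhd, Uqcr, Cox4 to Cox8 and Atp5, without symbols ending in -ps or -rs). The rule found 88 genes among 54583 symbols shared by the 2 deposited tables: 38 of complex I, 4 of complex II, 8 of complex III, 21 of complex IV and 17 of complex V. Of these, 87 had the same symbol in both tables, and subunit b of the ATP synthase was listed as Atp5f1 in one and Atp5pb in the other. In the annotation 84 were protein coding and 4 (Cox6c2, Ndufa11b, Ndufb4c and Ndufs6b) were processed pseudogenes, copies of a subunit gene made from its mRNA. Most were short: the principal transcript of 63 was under 1000 bases and that of only 5 was 2000 bases or more, with a median of 687 bases.

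RNA was sequenced from mouse bone marrow-derived macrophages, which are bone marrow cells differentiated in culture, from mice 6 to 8 weeks old. There were 4 groups of 3 libraries. Wild-type cells (WT) and cells labelled as lacking Kif13b (KO), the gene of a kinesin motor, were left without apoptotic cells. The groups WT_AC and KO_AC were the same genotypes cultured for 90 minutes with 5 dying Jurkat cells per macrophage; Jurkat is an established line of human leukaemic T cells, here made apoptotic. The labels describe the KO genotype in 1 place as a knock-down and in another as null on both alleles, and they list serum of 10 to 11 percent for the WT libraries and 12 to 14 percent for the KO libraries without apoptotic cells. These values rise by 1 from 1 sample to the next over most of the list, so they may be an entry error rather than a difference in culture, and if real they cannot be told apart from genotype. Whether the 3 libraries of each group are from separate mice or cultures is stated in no label, so every p-value measures the spread between these libraries, which may be technical.

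Library totals were alike, from 17000976 to 18770757 counts. The counts of Kif13b itself were 281, 345 and 424 in KO against 599, 546 and 535 in WT, but 1697, 1697 and 1721 in KO_AC against 1600, 1561 and 1634 in WT_AC, with a log2 difference of -0.59 without and 0.13 with apoptotic cells (adjusted p = 0.0087 and 0.0261). The label was thus matched by a lower level only without apoptotic cells, and KO and KO_AC stand for the libraries so labelled throughout. The summed level of 8 macrophage markers was 26890 to 31350 CPM (counts-per-million of the library, TMM-scaled for single genes) without apoptotic cells and 15220 to 17700 with them, with none at 0 in any group. The summed level of 11 T cell markers was 48.1 to 57.5 CPM without and 81.6 to 104 CPM with them, with 1 marker at 0 in WT, that of 7 fibroblast markers 278 to 472 CPM with them, and 6 neutrophil, 4 B cell and 3 erythroid markers summed to at most 20.04, 4.81 and 0.927 CPM. Without apoptotic cells the fibroblast markers summed to 494 to 630 CPM in WT and to 606, 621 and 888 CPM in KO libraries 1, 2 and 3. With apoptotic cells they summed to 427 to 472 CPM in WT_AC and 278 to 302 CPM in KO_AC. The macrophage markers summed to 15220 to 15810 CPM in WT_AC and 17320 to 17700 CPM in KO_AC. For the T cell markers these ranges were 91.3 to 104 and 81.6 to 88.9 CPM. The genotypes thus did not overlap in these sums, whose part in the results was not tested. KO libraries 1 and 2 stood apart in the subunit genes from the other 4 libraries without apoptotic cells, as described next, and results are given with and without them.

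The promoters of the subunit genes with the largest rise of each of complexes I, III, IV and V, among those with a RefSeq promoter entry, and of Sdha, a long-transcript gene that did not rise, are shown because the sections below compare these genes. Each is the 150 bases before the start of transcription in RefSeq (build GRCm38.p6), 5′ to 3′ on the gene's strand. Capitals mark the letters searched for on both strands: GCGC followed by any base and TGCGC (bound by NRF1, a regulator of many respiratory chain genes), CCGGAAG (ETS family factors), AAGATGGCG (YY1) and GGGCGG (Sp factors). No motif contains another. Cox4i1 had no entry in the table.
Ndufb7 (chr8:83566608-83566757, plus strand): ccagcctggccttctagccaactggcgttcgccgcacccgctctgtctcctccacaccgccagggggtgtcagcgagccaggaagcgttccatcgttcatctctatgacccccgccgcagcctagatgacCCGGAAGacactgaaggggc
Uqcr11 (chr10:80406822-80406971, minus strand): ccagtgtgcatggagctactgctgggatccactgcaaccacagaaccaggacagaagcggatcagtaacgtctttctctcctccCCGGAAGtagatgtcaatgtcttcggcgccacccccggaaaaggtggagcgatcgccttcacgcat
Cox6a1 (chr5:115348959-115349108, minus strand): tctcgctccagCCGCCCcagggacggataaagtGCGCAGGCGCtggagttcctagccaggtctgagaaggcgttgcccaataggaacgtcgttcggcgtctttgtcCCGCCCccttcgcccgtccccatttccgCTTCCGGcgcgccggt
Atp5o (chr16:91931631-91931780, minus strand): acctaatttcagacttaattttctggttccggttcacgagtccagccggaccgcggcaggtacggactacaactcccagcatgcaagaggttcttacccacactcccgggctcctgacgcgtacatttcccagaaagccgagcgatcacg
Sdha (chr13:74350241-74350390, minus strand): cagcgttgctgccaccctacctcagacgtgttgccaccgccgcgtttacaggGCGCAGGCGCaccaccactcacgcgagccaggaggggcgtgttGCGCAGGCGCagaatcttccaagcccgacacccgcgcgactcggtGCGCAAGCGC

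The search over the whole RefSeq windows, from 250 bases before to 50 bases after the start, covered 68 of the 88 genes. The NRF1 letters were in 25% of these genes, against 5.19% of all genes with a window and 11.7% of the genes tested between KO and WT. The YY1 letters were in 10.3%, against 1.64% and 3.71%, and the ETS letters in 25%, against 9.93% and 20.6%. The Sp letters were in 41.2%, against 38.2% and 68.8%. Among the subunit genes that rose in KO, 20.7% held the NRF1 letters, and among those tested that did not pass, 30.6% did. The same shares were 17.2% (5 of 29 genes) and 5.56% (2 of 36) for the YY1 letters, 24.1% and 27.8% for ETS, and 34.5% and 44.4% for Sp. These are counts of letters, not of bound sites.

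In WT macrophages without apoptotic cells, the most abundant subunit mRNAs per kilobase of principal transcript were mainly those of complex IV. Cox4i1, the form of subunit 4 used in most tissues, had 527 ± 5.85 CPM per kilobase (SD, n = 3), Cox8a (subunit 8) 524 ± 62.0 and Cox6a1 (subunit 6a) 489 ± 18.3 on the same scale. The libraries of Cox8a ranged from 462 to 586, so its place relative to Cox4i1 and Cox6a1 was within its spread. Far lower, Ndufs1, a core complex I subunit with iron-sulfur clusters, had 21.1 ± 1.87 CPM per kilobase, and Ndufb9 18.5 ± 0.665. Neither was the lowest: Ndufb2, an accessory complex I subunit, had 1.04 CPM in WT, where Ndufb9 had 13.0 CPM. Ndufb2 had 10 to 23 counts over all libraries. Several isoforms of other tissues were at or near 0 in all 12 libraries: Cox4i2 had at most 3 counts, Cox7b2, Cox8b and Cox8c (the latter 2 of muscle and testis) at most 1, and Ndufa4l2 at most 6. Cox6a2 and Cox7a1, both forms of heart and skeletal muscle, were detected, the first with 7 to 20 counts over all libraries and the second with 29 to 76 without apoptotic cells and 4 to 14 with them. Cox6b2, the testis form of subunit 6b, had 3 to 14 counts.

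Atp5o, which encodes the protein that links the stalk and head of the ATP synthase, had 4.53 ± 0.269 CPM per kilobase in WT, far under its partner subunits. Its symbol covers 2 overlapping loci in the annotation, and 29.0% of its transcript is shared with another gene on the same strand. The shared parts were 31.9% for Ndufb2, 28.6% for Ndufb9 and 19.7% for Ndufb8. The counting of such reads is not given in the sources used here, so the levels and changes of these 4 genes are uncertain.

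The first comparison asks whether the loss of Kif13b changed these genes in resting macrophages. Subunit mRNAs were higher in KO: of 78 genes with enough counts to test, 33 rose and none fell (edgeR quasi-likelihood test, Benjamini-Hochberg adjusted over all 12640 genes tested). Over all genes tested, 7.94% rose and 8.24% fell. The median log2 difference, KO minus WT, was 0.37 over the subunit genes and 0.02 over all genes tested. At an unadjusted p under 0.05, 44 were higher and 1 was lower, and DESeq2 called 26 higher and 0 lower, without shares of all genes by these 2 rules to compare. The rise was carried by libraries 1 and 2 of KO, which lay above all 3 WT libraries for 74 and 66 of the 78 genes, while library 3 did so for 21, lay within the WT range for 40 and below it for 17. Library 3 also had the highest summed fibroblast markers (888 CPM), whose part in the result was not tested. All 3 KO libraries lay above all WT libraries for 21 genes, and below for 1, where 16.4% and 17.2% of all genes tested did so.

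Relative to the WT mean, the median of the 75 subunit genes with a mean of at least 50 counts was 0.51 in KO library 1, 0.44 in library 2 and 0.00065 in library 3, on the log2(CPM + 0.5) scale. The 3 WT libraries ranged from -0.05 to 0.04. The share of all counts taken by the 88 genes was 1.45%, 1.497% and 1.19% in KO and 1.16%, 1.21% and 1.17% in WT. Without KO libraries 1 and 2, the median was -0.0035. That fit holds 1 KO library, chosen with its position known and assumed to vary like the other libraries, so its count of 0 called genes is no evidence by itself. Leaving out KO library 1 alone left 0 called, leaving out library 2 left 4 (Atp5o, Cox4i1, Ndufa1 and Ndufa11), and leaving out library 3 gave 51 higher and 1 lower. Leaving out WT library 1, 2 or 3 left 11, 16 or 4. The shares of all genes called in these fits were not taken, so these counts cannot be set against a background.

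**Figure D1:**
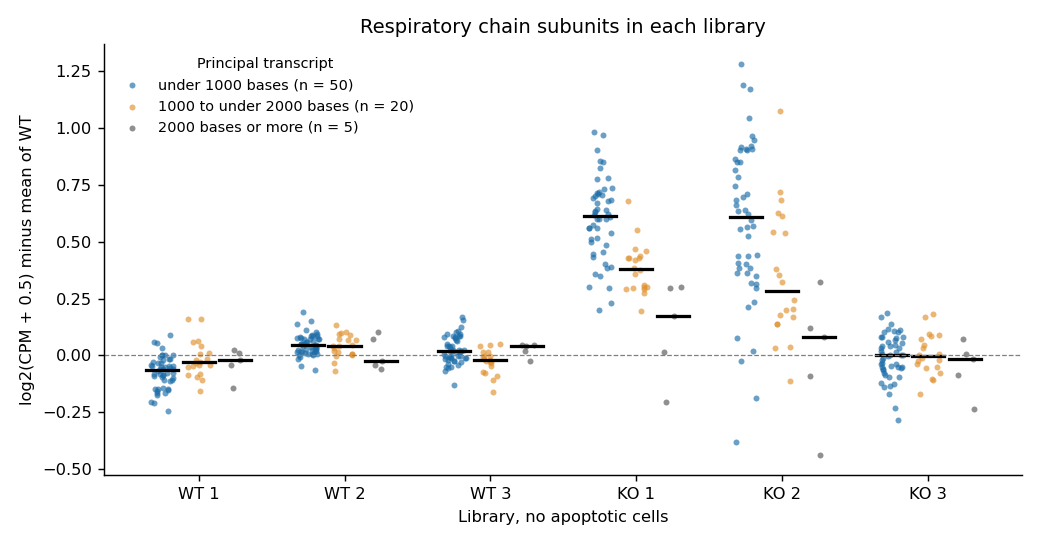
Each point is 1 subunit gene in 1 library without apoptotic cells, as log2(CPM + 0.5) minus the mean of the 3 WT libraries, coloured by length of the principal transcript, and black bars are medians. In KO libraries 1 and 2 the genes under 1000 bases had medians of 0.61 and 0.61 and the 5 of 2000 bases or more 0.17 and 0.08, while KO library 3 lay around 0.

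In complex I, which oxidises NADH, 18 of 35 tested genes rose. They were 15 of 28 accessory subunits, which surround the catalytic core, and 3 of 7 nuclear core subunits. Ndufa11, an accessory membrane subunit, had 26.5, 26.6 and 15.1 CPM in KO libraries 1, 2 and 3 and 13.4, 15.1 and 13.5 CPM in WT. KO library 3 lay just above the highest WT library, and the log2 difference was 0.70 (SE 0.17, adjusted p = 0.0119). Ndufc1, the accessory subunit with the shortest transcript of the tested complex I genes (315 bases), had 75.5, 84.2 and 48.7 CPM in KO and 44.7, 48.5 and 45.3 in WT, a log2 difference of 0.59 (SE 0.15, adjusted p = 0.0154). Ndufb7 differed by 0.73 (SE 0.21, adjusted p = 0.0338), but here KO library 3, at 135 CPM, lay inside the WT range of 109 to 135. Ndufa2, another accessory subunit, differed by 0.58 (adjusted p = 0.0175), again with overlapping groups. Ndufs1 went the other way without passing: it had 47.2, 40.0 and 46.1 CPM in KO and 49.1, 58.5 and 56.0 in WT, so all 3 KO libraries lay lower, with a log2 difference of -0.30 (SE 0.13, adjusted p = 0.102).

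None of the 4 genes of complex II, succinate dehydrogenase, passed the test, and their principal transcripts were long, with a median of 2066 bases. Sdhb, the iron-sulfur subunit, had a log2 difference of 0.37 (SE 0.13, adjusted p = 0.0585), and Sdhd, a membrane anchor, 0.14 (SE 0.13, adjusted p = 0.469). Sdhc, the other anchor, differed by 0.10 (SE 0.12, adjusted p = 0.583), and Sdha, the flavoprotein that oxidises succinate, by -0.03 (SE 0.12, adjusted p = 0.881).

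In complex III, which passes electrons from ubiquinol to cytochrome c, 4 of 8 genes rose: the small subunits Uqcr10, Uqcr11 and Uqcrq, and core protein Uqcrc1. Uqcr11 had 222, 316 and 135 CPM in KO and 130, 130 and 129 in WT. The KO libraries spread far more than those of WT, and the log2 difference of 0.79 (SE 0.23) had an adjusted p of 0.0433. Uqcrq had 240, 307 and 159 CPM in KO and 147, 155 and 144 in WT, a log2 difference of 0.66 (SE 0.17, adjusted p = 0.0144). Uqcr10 differed by 0.60 (SE 0.16, adjusted p = 0.0149), and in both genes all KO libraries lay above all WT libraries. Uqcrfs1, the Rieske iron-sulfur protein that does the chemistry, differed by 0.15 and did not pass.

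In complex IV, cytochrome c oxidase, 5 of 14 tested genes rose (Cox4i1, Cox5a, Cox5b, Cox6a1 and Cox7c). Cox4i1 had the smallest p-value of all subunit genes: 652, 767 and 442 CPM in KO against 388, 394 and 397 in WT, a log2 difference of 0.66 (SE 0.16, adjusted p = 0.00967). The 3 WT libraries lay close together, and each KO library lay above them. Cox6a1 had 423, 468 and 275 CPM in KO and 291, 270 and 277 in WT, so KO library 3 lay inside the WT range (log2 difference 0.48, SE 0.15, adjusted p = 0.0373). Cox5a differed by 0.47 (SE 0.15, adjusted p = 0.0395).

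In complex V, 6 of 17 genes rose (Atp5d, Atp5e, Atp5j2, Atp5l, Atp5md and Atp5o). Atp5d and Atp5e encode subunits of the central stalk that turns inside the head, and the other 4 belong to the membrane part and peripheral stalk. Atp5j2, subunit f of the membrane part, had 329, 391 and 219 CPM in KO and 198, 210 and 213 in WT (log2 difference 0.60, SE 0.16, adjusted p = 0.0155). Atp5d had 315, 355 and 234 CPM in KO and 222, 218 and 211 in WT (log2 difference 0.47, SE 0.14, adjusted p = 0.0258). Atp5o had 7.90, 7.53 and 4.39 CPM in KO and 3.70, 4.05 and 3.63 in WT (log2 difference 0.79, SE 0.20, adjusted p = 0.0139). In each of these 3 genes KO library 3 was the lowest of its group and still above WT. Atp5a1 and Atp5b, the large subunits of the catalytic head, differed by 0.10 (SE 0.12) and 0.24 (SE 0.13) without passing.

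The rise followed transcript length. Of the subunit genes under 1000 bases 28 of 53 rose, with a median log2 difference of 0.43, of those of 1000 to under 2000 bases 5 of 20, with 0.24, and of those of 2000 bases or more 0 of 5, with 0.10. Other protein-coding genes were ordered alike: of 68 under 500 bases 25% rose, with a median of 0.37, of 674 of 500 to under 1000 bases 26.6%, with 0.31, of 2642 of 1000 to under 2000 bases 15%, with 0.17, and of 8045 of 2000 bases or more, most of them longer than any subunit gene, 3.73%, with -0.06. The subunit genes in the first 2 of these ranges rose in 53.8% of 13 and 52.5% of 40 cases, with medians of 0.49 and 0.42. Across genes, Pearson's r between log2 length and log2 difference was -0.37 over 11507 protein-coding genes and -0.41 over the 78 subunit genes, which share the same 6 libraries. When the median of all protein-coding genes in the same of 8 length bins was subtracted, the median difference of the subunit genes was 0.11, with 51 above and 27 below their bin. The counts were also corrected for transcript length and GC content in each library. By this fit 8 subunit genes were called higher (Atp5f1, Atp5l, Atp5md, Atp5o, Cox5a, Cox7c, Ndufc1 and Ndufv2), 6 of them among the 33. The share of all genes called with the correction was not taken, so this count cannot be set against a background. The median was 0.13 over the subunit genes and 0.012 over all genes tested.

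**Figure D2:**
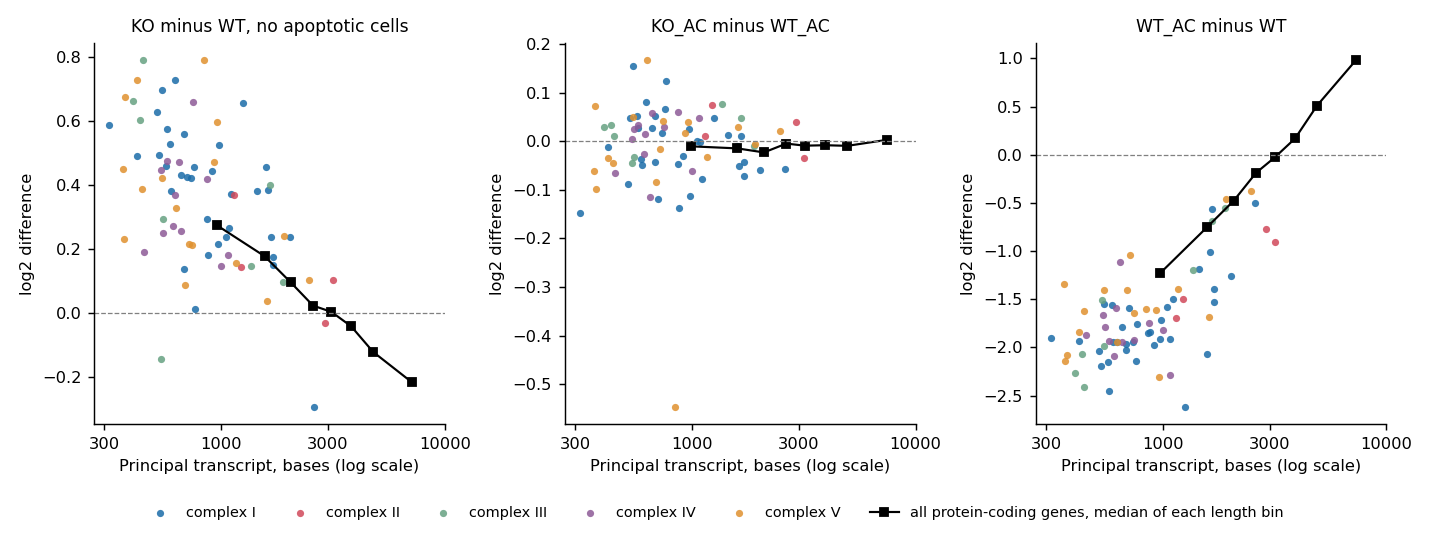
Log2 difference (y axis, with its own range in each panel) against length of the principal transcript in bases (log scale) for the 75 subunit genes with a mean of at least 50 counts, coloured by complex, and for all protein-coding genes as medians of 8 length bins (black). Short genes lay highest in KO against WT and lowest in WT_AC against WT, and no slope is seen in KO_AC against WT_AC, where the lowest point is Atp5o.

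Other mitochondrial genes were read from lists taken with the subunits. Of 77 tested mitochondrial ribosomal protein genes 18 rose in KO and 0 fell (median log2 difference 0.26), of 15 import genes 5 rose (0.21), of 11 coenzyme Q synthesis genes 3 rose (0.24), and of 15 tricarboxylic acid cycle genes, whose median transcript was 2636 bases, 0 changed (0.11). Assembly factors rose in 1 of 16 cases for complex I, 0 of 4 for complex II, 2 of 6 for complex III, 2 of 17 for complex IV and 1 of 5 for complex V, with 0 lower. Of 10 regulators of mitochondrial biogenesis 0 rose and 1 fell. Cytosolic ribosomal protein genes, also short (median 761 bases), rose in 23 of 85 cases with a median of 0.36. The 13 subunits encoded in mitochondrial DNA went the other way: 7 fell, 0 rose, and the median was -1.13. Counts from the mitochondrial genome were 1.11%, 0.578% and 1.23% of the total in KO and 1.42%, 2.05% and 2.52% in WT. Cyc1, cytochrome c1 of complex III, and Cycs, cytochrome c, which the symbol rule leaves out, differed by 0.35 (adjusted p = 0.0679) and -0.02 (adjusted p = 0.94).

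With apoptotic cells present, the same genotype comparison showed almost no difference. Of 79 tested subunit genes 1 rose and 0 fell in KO_AC against WT_AC, where 6.58% and 4.75% of the 16467 genes tested rose and fell. The median log2 difference was 0.0053, against -0.02 over all genes tested. Groups did not overlap for 4 higher and 7 lower genes, and for 13.0% and 13.4% of all genes tested. At an unadjusted p under 0.05, 1 gene was higher and 2 were lower, and DESeq2 called 1 higher and 0 lower, again without shares of all genes by these 2 rules. Replicates were tighter than without apoptotic cells: the median SE of the log2 difference over the 75 subunit genes with a mean of at least 50 counts was 0.05 here and 0.14 there. Of these 75, 74 differed by less than 0.2 in either direction, and 66 by less than 0.1.

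The gene that rose was Atp5h, subunit d of the peripheral stalk of the ATP synthase. It had 84.2, 82.4 and 81.4 CPM in KO_AC and 74.0, 74.2 and 72.6 in WT_AC, with every KO_AC library above every WT_AC library. The log2 difference was 0.17 (SE 0.04, adjusted p = 0.00385 by edgeR). Over the alternatives the adjusted p was 0.00018 to 0.0323, apart from the joint fit of all 12 libraries, which takes its spread also from the libraries without apoptotic cells, where it was 0.661. In Uqcr11 and Cox4i1, which had risen without apoptotic cells, the KO_AC libraries lay among those of WT_AC. Uqcr11 had 33.2, 32.5 and 33.1 CPM in KO_AC and 33.0, 34.0 and 31.1 in WT_AC, and Cox4i1 141 to 143 and 136 to 144. Their log2 differences were 0.01 (SE 0.06) and 0.03 (SE 0.04). Ndufc1 had a log2 difference of -0.15 (SE 0.08, adjusted p = 0.27) and Ndufs8 of -0.11 (SE 0.05, adjusted p = 0.205). The smallest p-values of complexes III and IV were those of Uqcrfs1 (log2 difference 0.08, adjusted p = 0.26) and Cox5a (log2 difference -0.11, adjusted p = 0.235), and neither passed. Among the longer genes of complex II, Sdha differed by 0.04 (SE 0.04) and Sdhc by -0.03 (SE 0.04).

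Whether the genotype difference itself changed with apoptotic cells was tested as an interaction in 1 fit of all 12 libraries. Of 80 tested subunit genes 6 had a lower difference with apoptotic cells and 0 a higher one, where 5.13% and 7.55% of 16811 genes tested did. The share of subunit genes was thus near the background. At an unadjusted p under 0.05, 40 were lower and 1 higher, and DESeq2 called 9 lower and 0 higher. The shares of all genes by these 2 rules were not taken, so these counts cannot be set against a background. The 6 genes called by edgeR included Atp5o (interaction log2 -1.31, SE 0.34, adjusted p = 0.0117), Ndufc1 (-0.71, SE 0.19, adjusted p = 0.0165), Cox4i1 (-0.60, SE 0.17, adjusted p = 0.0197), Ndufs8 (-0.61, SE 0.18, adjusted p = 0.0306) and Atp5md (-0.48, SE 0.15, adjusted p = 0.035). Atp5o had only 20, 23 and 15 counts in KO_AC and 25, 28 and 34 in WT_AC. Its log2 difference there was -0.55 (SE 0.25, edgeR adjusted p = 0.173), opposite in sign to that without apoptotic cells. Without KO library 3 there were 55, again without a share of all genes to compare. Without KO libraries 1 and 2 together, which leaves 1 KO library, there were 0. Sdhb, with -0.33 (adjusted p = 0.116), and Uqcrq, with -0.61 (adjusted p = 0.075), did not pass.

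The comparison of macrophages with and without apoptotic cells asks what the encounter with dying cells does to these genes. All libraries with apoptotic cells stand in one deposited table and all without in the other, so treatment and whatever else differed between the tables cannot be told apart. In WT_AC against WT, 77 of 80 tested subunit genes were lower and 2 higher, where 36.7% and 48.3% of the 16811 genes tested were lower and higher. The median log2 difference was -1.73, against 0.25 over all genes tested. In KO_AC against KO 76 were lower and 2 higher, against 36.7% and 49.6% of all genes tested, with medians of -2.08 and 0.32. The subunit genes took 1.16% to 1.497% of counts without and 0.549% to 0.576% with apoptotic cells. In these bulk libraries fewer macrophages among the cells and less RNA per cell cannot be told apart, and whether reads from the human cells entered the mouse counts was not tested.

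Genes of all 5 complexes fell, and the gene with the smallest p-value of each is given here. Ndufb4, an accessory subunit of complex I, had 118, 125 and 123 CPM in WT and 34.0, 33.3 and 29.5 in WT_AC on the scale of all 12 libraries (log2 difference -1.92, SE 0.09, adjusted p = 1.15e-16). Sdhb had 226, 225 and 220 CPM in WT and 67.2, 69.5 and 69.8 in WT_AC (log2 difference -1.70, SE 0.10, adjusted p = 7.27e-15). In both genes the groups were far apart in all libraries. Uqcrh, the hinge protein of complex III, differed by -1.99 (SE 0.10) and Atp5mpl, a small membrane subunit of the ATP synthase, by -2.14 (SE 0.11). Cox7a2l, which helps to join complexes III and IV into a supercomplex, differed by -2.29 (SE 0.09), and in KO_AC against KO by -2.40 (SE 0.09).

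The smallest falls among the genes with a mean of at least 50 counts were those of 5 genes of complexes I, III and V. Atp5a1 had 609, 578 and 619 CPM in WT and 467, 460 and 466 in WT_AC (log2 difference -0.37, SE 0.08, adjusted p = 9.54e-05). Atp5b, which holds the catalytic sites of the ATP synthase, differed by -0.46 (SE 0.08), Ndufs1 by -0.50 (SE 0.09), Uqcrc2 by -0.55 (SE 0.08) and Ndufv1, the complex I subunit that binds NADH, by -0.56 (SE 0.09). In all 5 the 3 libraries of WT_AC lay below the 3 of WT. In KO_AC against KO, Ndufs1 differed by -0.23 (adjusted p = 0.0187) and passed in 9 of 13 alternatives, with an adjusted p of up to 0.13. Ndufa13 fell most among the genes with a mean of at least 50 counts: from 199, 214 and 199 CPM to 34.2, 31.0 and 34.3 (log2 difference -2.62, SE 0.19). Cox7a1 differed by -2.92 (SE 0.39) at 4 to 14 counts with apoptotic cells. The order of levels changed accordingly: per kilobase, Atp5b was the most abundant subunit mRNA in WT_AC, at 391 ± 10.6 CPM (SD, n = 3), and Cox4i1, the first in WT, was the 7th at 187 ± 5.42.

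**Figure D3:**
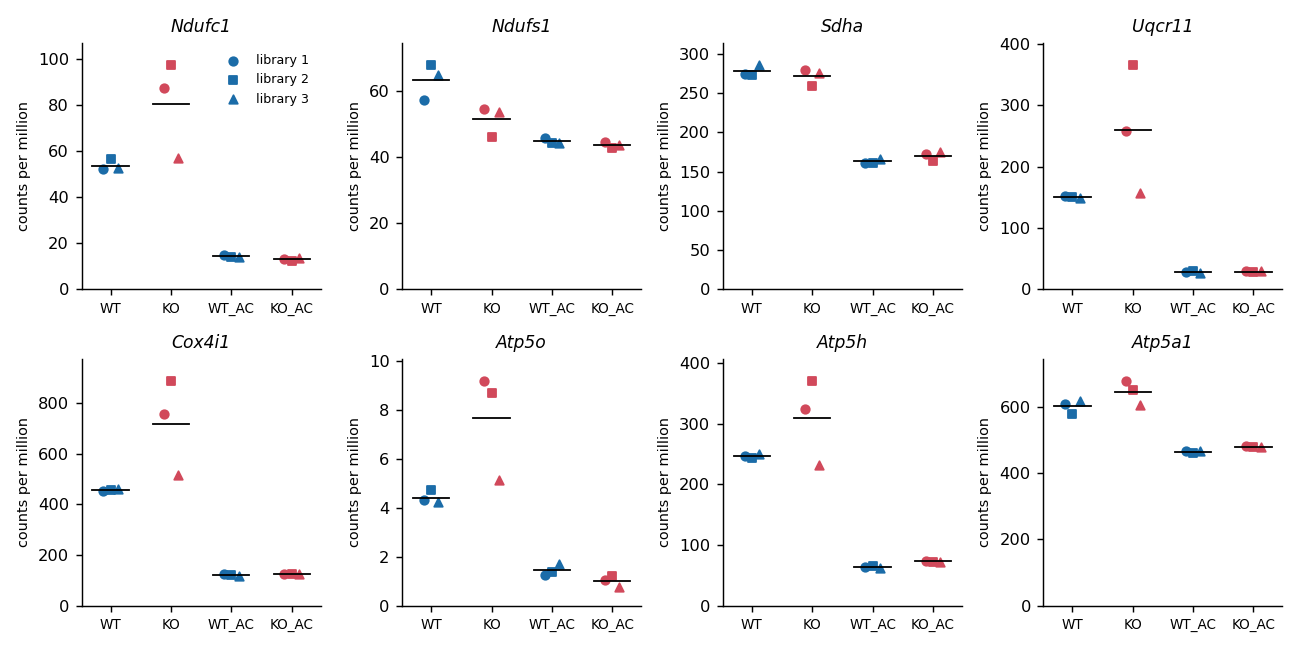
CPM, scaled over all 12 libraries, of 8 subunit genes in each library (marker shape gives the library number) with group means as bars, and each y axis starting at 0. Short-transcript genes such as Uqcr11 and Cox4i1 fell to a fraction of their level with apoptotic cells and were high in KO libraries 1 and 2, while Atp5a1 and Ndufs1 fell less.

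The levels kept with apoptotic cells were taken for the 75 subunit genes with a mean of at least 50 counts, which leaves out Cox7a1, Cox6a2 and Ndufb2. Of the WT level, those under 1000 bases kept a median of 26.6% (18.2% for Ndufa2 to 48.8% for Atp5g3). Those of 1000 to under 2000 bases kept 35.4% (16.3% to 72.6%) and those of 2000 bases or more 58.7% (41.9% to 77.2%). The corresponding medians in KO were 21.5%, 32.4% and 62.8%. Other protein-coding genes moved with length as well: those of 500 to under 1000 bases had a median log2 difference of -1.32, with 76.4% lower, and those of 2000 bases or more 0.23, with 33.1% lower. The subunit genes of 500 to under 1000 bases had a median of -1.84. The 5 of 2000 bases or more, which are shorter than most genes of that class, had a median of -0.77. After subtraction of the median of their length bin, their median was -0.62, with 7 above and 71 below. Pearson's r between log2 length and log2 difference was 0.31 over 13138 protein-coding genes and 0.56 over 78 subunit genes. Under the correction for length and GC content 78 subunit genes were lower, without a share of all genes to compare. The median of the subunit genes was then -2.37. This fall was larger than the uncorrected one (-1.73), whereas subtraction of the bin median made it smaller. The trend of the correction was fitted over annotated genes of every class, not only protein-coding ones. Why the 2 adjustments moved the median in opposite directions was not tested, so the corrected value does not show how much of the fall is apart from length. The ribosomal lists fell too: cytosolic ribosomal proteins in 79 of 88 cases (median -1.78) and mitochondrial ribosomal proteins in 74 of 77 (-1.49). In the cytosolic list 8 were higher. All 16 assembly factors of complex I were lower (-1.36), as were 4 of 6 for complex III and 13 of 17 for complex IV, with 1 higher in each of these 2 lists. Of 10 biogenesis regulators 3 were lower and 5 higher.

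The 13 subunits encoded in mitochondrial DNA had unlike values in the 2 genotypes. In WT_AC against WT 9 were lower and 0 higher (median -1.14), and in KO_AC against KO 5 were lower and 2 higher (median -0.20). In the interaction 2 of the 13 were higher and 0 lower.

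The 2 subunit symbols that were higher with apoptotic cells were both copies annotated as processed pseudogenes, and both passed the filter on low counts only through the libraries with apoptotic cells. Ndufs6b, a copy of Ndufs6, had 0, 1 and 0 counts in WT and 85, 82 and 55 in WT_AC, a ratio of 241 (95% exact interval 42.9 to 9580, counting error only). In KO it had 0 counts in all 3 libraries and 68, 67 and 68 in KO_AC, at least 24.6-fold higher against a floor of 3 counts per library. Cox6c2, a copy of Cox6c, had 2, 1 and 1 counts in WT and 45, 33 and 40 in WT_AC. Their parent genes Ndufs6 and Cox6c were lower. Processed pseudogenes as a class took 0.228% to 0.284% of counts without apoptotic cells and 1.64% to 2.05% with them, and the number of symbols with counts was 18335 to 18540 and 31787 to 32801. The table and the treatment cannot be told apart in these values either. Of the subunit genes tested, Ndufb2 passed in neither comparison, and Cox6a2 did not pass in KO_AC against KO.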

How the data were processed

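The deposited tables hold whole-number read counts per gene made by the authors, 1 table without and 1 with apoptotic cells. The submitters' processing notes name fastp, HISAT2 2.0.5, DESeq2 1.20.0 and the build mm10, without their order (for the counting step, its annotation and strandedness: not given in the sources used here). The unit of all values used is the deposited raw count.

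Counts were tested with edgeR 4.0.16 (quasi-likelihood, TMM scaling, filterByExpr, R 4.3.3), on the 6 libraries of 1 table for each comparison of genotypes and on all 12 for the others, with Benjamini-Hochberg adjustment over all genes tested and a threshold of 0.05. Transcript lengths came from GENCODE M21 and promoters from RefSeq. Alternatives were DESeq2 1.42.0, its size factors, no filter, a replicate block, each library left out, the joint or separate fit, a 1.5-fold minimum and a length and GC correction. The scripts were tested on simulated counts. Genes named are those with the smallest p in each complex, plus those called in the interaction, of which 1 is not reported here, single features of the order of levels and the extremes by length, which were picked after their values were seen. The members and lists were chosen with earlier results of these data known. Intervals and floors cover counting error only.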

Additional observations from a re-analysis of the deposited data

Results flagged for a closer look

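In 5 subunit genes described here the difference between KO and WT was not the same without and with apoptotic cells, by the interaction test over all 12 libraries (edgeR, adjusted over all genes tested). They are among 6 of 80 tested subunit genes called lower (7.5%), where 5.13% of all 16811 genes tested were. The share was thus near the background, and the count is no result about the subunit genes as a group. The interaction, as the log2 difference with apoptotic cells minus that without, was -1.31 for Atp5o, -0.71 for Ndufc1, -0.60 for Cox4i1, -0.61 for Ndufs8 and -0.48 for Atp5md. In all 5 the level was higher in KO without apoptotic cells. Atp5o had only 15 to 34 counts a library with apoptotic cells. With KO libraries 1 and 2 left out, a fit with 1 KO library that was picked with its position known, the interaction was -0.75 for Atp5o, -0.22 for Ndufc1, -0.14 for Cox4i1, -0.17 for Ndufs8 and -0.19 for Atp5md, and none was called. Groups of 3 libraries are too small for a test of single outlying libraries.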

How the results depend on the processing

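The fall with apoptotic cells kept its direction and passed under every alternative for Ndufb4, Sdhb, Uqcrh, Cox7a2l and Atp5mpl (60 values for WT_AC against WT, 65 for KO_AC against KO). In KO_AC against KO, Ndufs1 passed in 9 and Cox6a2 in 3 of 13 alternatives, the latter with log2 differences of -0.94 to 0.07. The median over the subunit genes moved to -2.37 in WT_AC against WT and -2.58 in KO_AC against KO with the length and GC correction. With it 1 gene was higher in KO_AC against KO. The median of KO_AC against KO was -1.69 without KO libraries 1 and 2 together, an alternative added after seeing the data.

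For KO against WT, the count of 33 higher became 8 (median 0.13) with the length and GC correction, 12 at 1.5-fold or more, 0 (median -0.0035) without KO libraries 1 and 2 and 0 to 51 (with 0 to 1 lower) when 1 library was left out. The joint fit gave 48 higher and 1 lower. Shares of all genes called were taken in the main fits only, so no count under an alternative can be set against a background. Among the genes with the smallest p of each complex, the sign changed for Sdhd, Sdhc and Cox6a1. Sdhd differed by -0.0085 with the length and GC correction, -0.079 without libraries 1 and 2, and -0.020 to 0.20 with 1 library left out. Sdhc differed by -0.088 without libraries 1 and 2, and -0.00078 to 0.15 with 1 left out. Cox6a1 differed by -0.098 with the correction and -0.021 without libraries 1 and 2. Other subunit genes also changed sign under some alternative, including called genes such as Ndufa3, Ndufa6, Ndufa7 and Ndufb8, while Cox4i1 and Atp5o did not. For KO_AC against WT_AC the median was 0.020 with no filter, 0.039 with the length and GC correction and 0.032 in the joint fit, and 0 genes were called in the joint fit or at 1.5-fold. Among the genes with the smallest p of each complex, Sdhc ranged from -0.075 to 0.0043 with 1 library left out and Uqcrb changed sign to 0.0089 with the correction.

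For the interaction, the 6 lower genes became 25 with no filter, 3 with the length and GC correction, 0 (median 0.017) without KO libraries 1 and 2, and 1 to 55 when 1 library was left out. The replicate block gave 12 lower for the interaction and 35 higher for KO against WT, and changed no other count by over 1.5 times. Deviations of same-numbered libraries of the 2 genotypes from their group means correlated at -0.23 to 0.16, so the numbers were not taken to pair samples. Same-numbered libraries with and without apoptotic cells were not correlated, so a pairing between these was not examined. The causes were not tested. Depth was 17000976 to 18770757 counts a library; genes with a few counts, such as Cox4i2 and Cox8b, could not be compared at this depth.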
